A study of Mus musculus with 27 samples.

Results

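The genes described here encode the axoneme, the microtubule core of a motile cilium, and the proteins that build it. The set is a named list of 36 genes, matched by symbol with no threshold on a measured value, and all 36 were found among the 56941 genes of the deposited tables. All 36 also passed the filter on low counts that left 24629 genes for testing. Whole lungs of male C57Bl/6 mice, 7 to 8 weeks old, were profiled by RNA sequencing after polyA selection. Each mouse had been given 5 oropharyngeal doses of an allergen, extract of house dust mite (HDM; 10 µg in 50 µl), or of phosphate-buffered saline (PBS), spaced by 2 to 3 days. A further 24 h later each received 100 µl of saline (SAL) or of combustion products (CP) at 2 mg per ml of saline, made by burning plywood, paper and plastic, and lungs were taken 24 h after that. The groups are PBS_SAL (7 libraries), PBS_CP (7), HDM_SAL (6) and HDM_CP (7), and a library is named by its group and the number in its label. The labels give each library a number of its own and do not say outright that each is a separate mouse, so p-values measure the spread between these libraries.

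In a motile cilium, dynein motors sit in an outer and an inner row on each doublet microtubule and slide the doublets past each other, while radial spokes and a central pair of microtubules regulate the motors. Tektins and other inner proteins stiffen the doublets, a molecular ruler spaces the motors, and assembly factors fold the dyneins in the cytoplasm before they are carried into the cilium. In the lung these structures belong to the multiciliated cells of the airway lining, which move mucus, and inherited loss of many of these genes causes primary ciliary dyskinesia. The multiciliated program is switched on by multicilin (Mcidas) and by the transcription factors Foxj1 and the RFX family, of which RFX proteins bind X-box sequences in the promoters of cilium genes.

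Some of the promoters carry the core letters of an X-box, and a few are shown. Whether these letters have a part in how the genes vary across libraries was not tested. RefSeq's promoter table for build GRCm38.p6, with 250 bases before and 50 after each start, held 29 of the 36 genes in 32 windows. The 6 bases GTTGCC, searched on both strands, were present for 12 of these 29 genes (41.4%), against 14.1% of the 27025 genes of the table. By window the shares were 40.6% of 32 and 12.5% of 32851. A strict form of the X-box with both arms was searched as GTTNCC followed after 0 to 3 bases by GGNAAC. It was found in 0 of the 32 windows and in 0.804% of all windows. This form requires CC at the end of the left arm and GG at the start of the right arm. Looser left arms, such as the gttgct just before GGCAAC in Dnai2 and Hydin below, were therefore not counted. Looser right arms, such as the agcaac just after gtttcc in Dnah9 below, were not counted either. The forkhead core GTAAACA was found for 1 gene, Cfap43 (3.12% of the windows of the set against 3.65% of all windows). These matches describe letters only and are not measured binding sites. The 250 bases upstream of the start are given 5′ to 3′ on the gene's strand, with GTTGCC or its reverse complement GGCAAC in capitals. Tekt1, which encodes a tektin filament of the doublet, has 2 matches in the window at chr11:72361883-72362132 (GRCm38.p6, minus strand), ending 29 and 9 bases before the start. Dnai2, an outer-arm intermediate chain, lies next to chr11:114727169-114727418 (plus strand) with its match 20 bases before the start, and Hydin, a giant central pair protein, next to chr8:110266727-110266976 (plus strand) with its match 7 bases before it. Dnah9, an outer-arm heavy chain that is among the genes called below, has no match to GTTGCC in chr11:66168552-66168801 (minus strand). It does hold gtttcccagcaac, which misses the strict form only by the first base of the right arm.
Tekt1: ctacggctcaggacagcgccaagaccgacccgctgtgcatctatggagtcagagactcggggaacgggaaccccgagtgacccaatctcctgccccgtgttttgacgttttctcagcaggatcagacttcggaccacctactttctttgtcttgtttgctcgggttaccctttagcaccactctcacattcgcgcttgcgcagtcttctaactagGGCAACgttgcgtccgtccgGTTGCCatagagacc
Dnai2: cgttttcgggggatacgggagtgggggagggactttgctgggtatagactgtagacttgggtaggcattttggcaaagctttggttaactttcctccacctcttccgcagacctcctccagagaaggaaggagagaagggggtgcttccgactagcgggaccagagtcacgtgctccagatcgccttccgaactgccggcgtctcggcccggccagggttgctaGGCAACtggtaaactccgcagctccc
Hydin: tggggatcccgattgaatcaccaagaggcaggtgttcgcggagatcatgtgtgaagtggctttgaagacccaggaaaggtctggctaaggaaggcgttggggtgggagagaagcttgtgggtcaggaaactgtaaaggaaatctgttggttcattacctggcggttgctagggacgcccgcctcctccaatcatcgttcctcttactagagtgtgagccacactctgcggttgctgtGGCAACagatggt
Dnah9: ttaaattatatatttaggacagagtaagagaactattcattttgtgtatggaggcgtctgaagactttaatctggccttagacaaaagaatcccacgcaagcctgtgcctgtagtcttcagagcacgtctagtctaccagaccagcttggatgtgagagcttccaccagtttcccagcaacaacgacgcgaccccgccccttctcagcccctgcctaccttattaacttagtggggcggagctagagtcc

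The deposited estimated counts summed to between 56.3 and 84.5 M per library, and the 3 libraries under 60 M were PBS_SAL 104, PBS_SAL 105 and PBS_CP 102. Within-library levels compared between genes are given in transcripts per M (TPM; M, mega), and levels compared between libraries in counts per M (CPM) of the scaled library. Mitochondrial transcripts took 3.26, 3.86 and 3.09% of the estimated counts in HDM_SAL 50, 54 and 99, and between 2.08 and 2.78% in the other 24 libraries. Airway epithelium was present in the lung samples, with a PBS_SAL median of 82033 TPM for the club cell gene Scgb1a1 and group medians of 52.4 to 70.9 TPM for the ciliated cell gene Foxj1.

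By TPM the set fell into 3 very abundant genes and a long tail. Tppp3, a tubulin polymerization-promoting protein and a marker of ciliated cells that other cell types also make, had the highest mean at 509.7 TPM over the 27 libraries. Tuba1a, an alpha tubulin, followed at 482 TPM, and Tubb4b, a beta tubulin abundant in cilia, at 353 TPM, and both tubulins also serve ordinary cytoplasmic microtubules. Ccdc153, a nexin-dynein regulatory complex protein often used to mark ciliated cells, reached 154 TPM, and the radial spoke head gene Rsph1 reached 51.2 TPM. The other 31 genes had means from 35.4 TPM (Cfap65) down to 1.90 TPM (Dnah7b). The heavy chain dyneins lay at the low end, from 11.6 TPM for Dnah6 to 1.90 TPM for Dnah7b. Reads of Dnah7a and Dnah7b, of Spag6l and Spag6, and of Tuba1a and its close relatives may be shared between near-identical copies, so their levels are less certain than those of the rest.

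**Figure D1:**
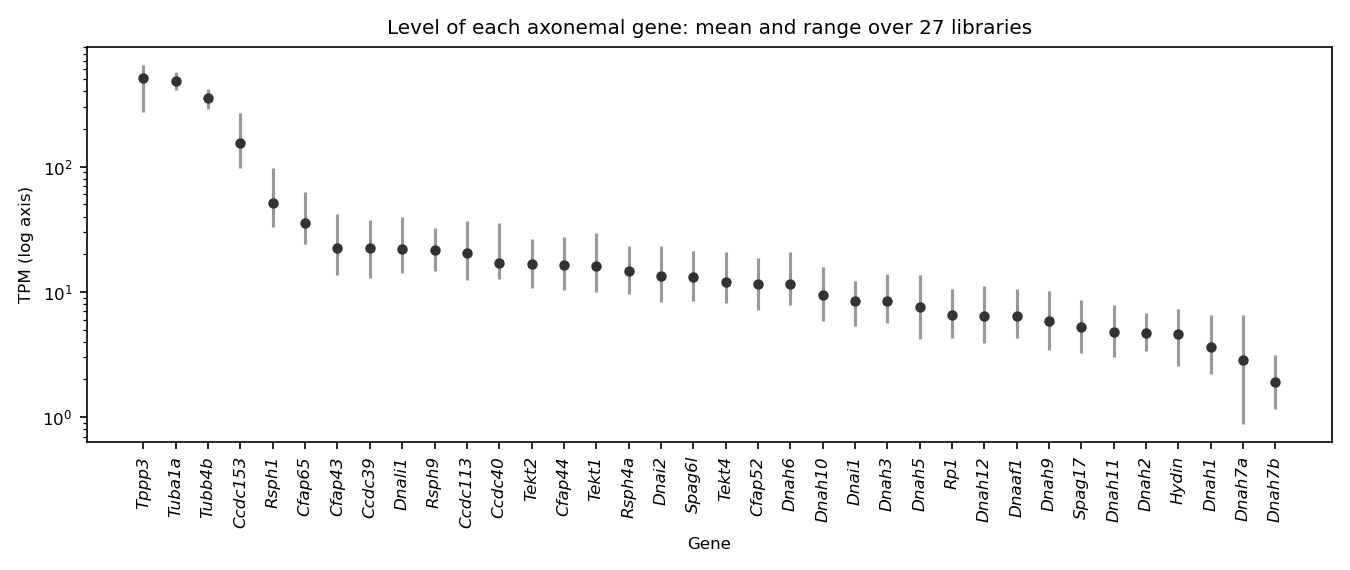
Mean (point) and range (line) of each of the 36 genes over 27 libraries, on a log axis in TPM, ordered by mean. Tppp3, Tuba1a and Tubb4b stand between 353 and 509.7 TPM, and Dnah7b is lowest at 1.90 TPM.

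Apart from the tubulins and Tppp3, the genes moved as a block from library to library, and mice of the same group differed widely. The median within-group SD of log2 CPM was 0.35 over the 36 genes, from 0.15 (Tuba1a) to 0.41 (Tekt1). It was 0.27 over all genes tested and 0.15 over genes whose mean log2 CPM reached 1, a level that 35 of the 36 exceeded. In HDM_SAL, library 54 was the highest of its group for 34 of the 36 genes and library 50 for the other 2, while library 100 was the lowest for 25. In PBS_SAL, library 81 was highest for 25 genes and library 105 for 11. In HDM_CP, library 66 was lowest for 23. As an index of the set, the median over the 36 genes of log2 CPM minus the PBS_SAL mean was taken. It was 0.69, 0.05, 1.07, 0.16, 0.47 and -0.13 in HDM_SAL 50, 52, 54, 72, 99 and 100. It ran from -0.36 to 0.43 in PBS_SAL, from -0.12 to 0.37 in PBS_CP and from -0.31 to 0.47 in HDM_CP. Only HDM_SAL 50 and 54 lay above all other groups' libraries. These are 2 of the 3 libraries with the high mitochondrial shares, whose part in the result was not tested. In whole lung, a different number of ciliated cells and a different amount of RNA per ciliated cell cannot be told apart.

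**Figure D2:**
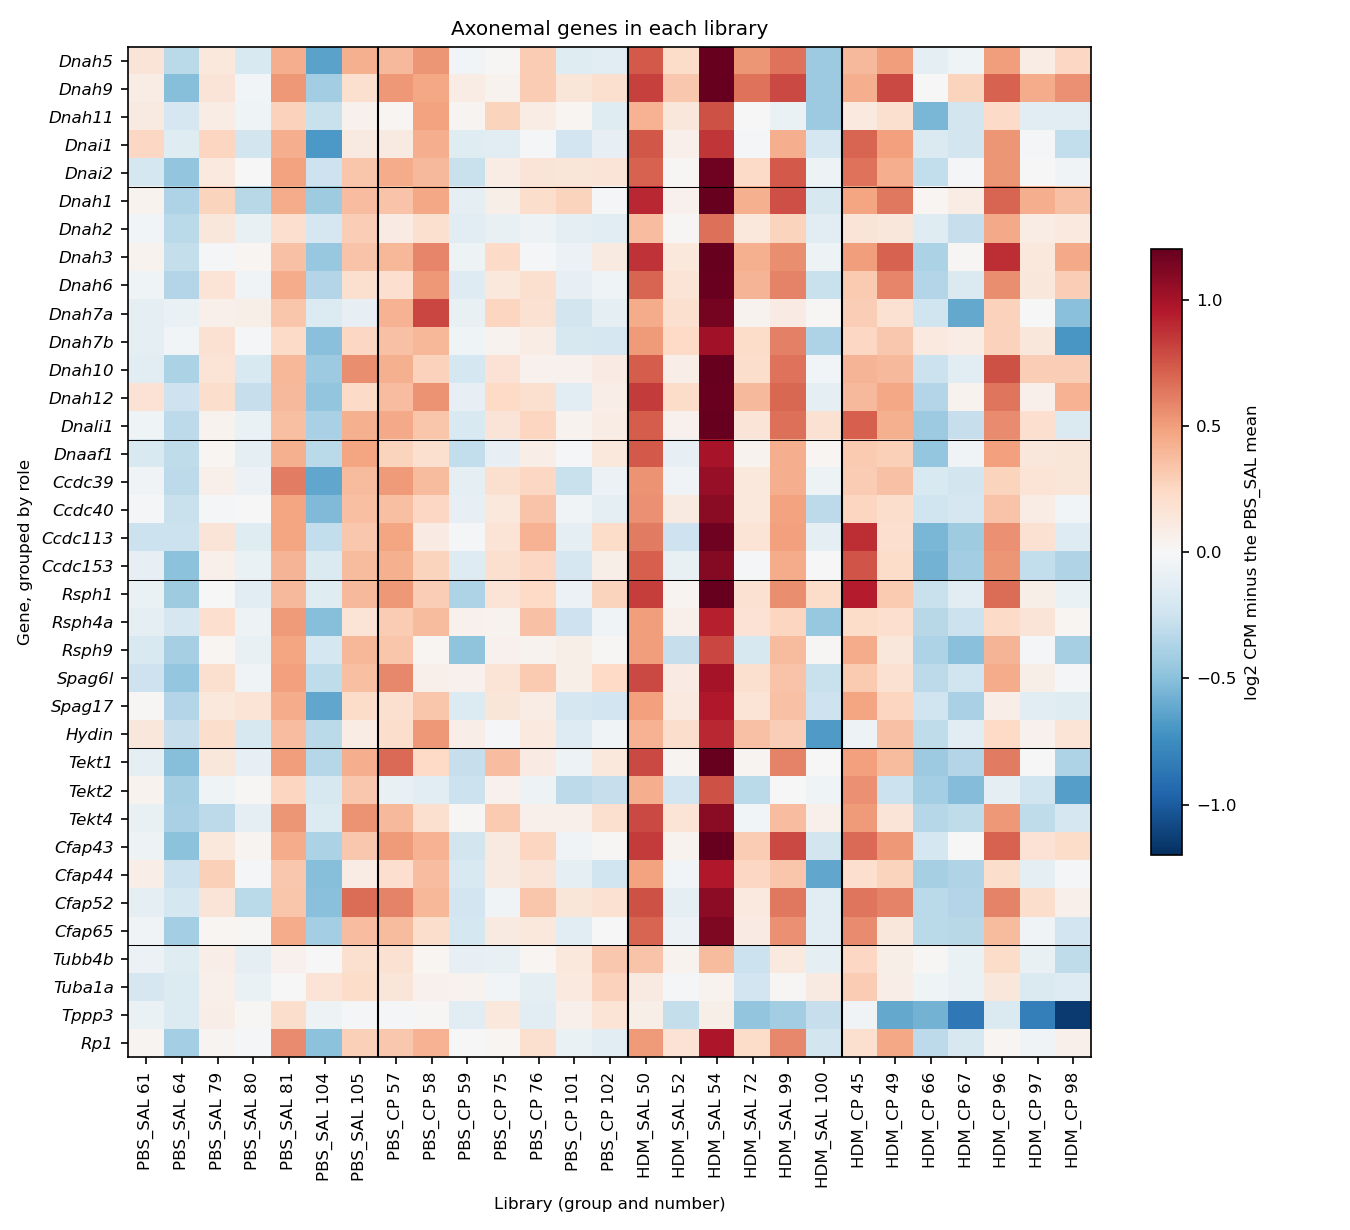
Log2 CPM of each of the 36 genes (rows, by role) in each library (columns, by group) minus the PBS_SAL mean, in log2 units, with colours saturating at the ends of the bar. HDM_SAL 54 is the reddest column, for 34 genes the highest of its group, and Tppp3 is bluest in HDM_CP 98.

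House dust mite alone was compared with PBS among saline mice, which asks what the allergen does without smoke products. HDM_SAL gave higher fitted levels than PBS_SAL for 35 of 36 genes, with a median log2 fold change of 0.39 against 0.01 over all genes tested, and 1 gene passed the test. That gene was Dnah9, the heavy chain of the outer arm in the distal cilium, and 0 genes passed in the lower direction. Of all genes tested, 5.44% were called in this comparison (3.19% higher and 2.25% lower), so 1 of 36 is below that share in this fit. At an unadjusted p under 0.05 there were 19 of the 36 (52.8%), against 20.0% of all genes.

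Dnah9 (chromosome 11, 65722108 to 66059377, minus strand, GRCm39) ran from 18.9 through a median of 28.7 to 38.5 CPM in PBS_SAL and from 19.9 through 44.4 to 68.6 CPM in HDM_SAL. The groups overlapped, with 4 of 6 HDM_SAL libraries above every PBS_SAL library and library 100 near the lowest of them. The means were 27.6 ± 6.69 (SD, n = 7) and 43.1 ± 16.1 CPM (SD, n = 6). The fitted log2 fold change was 0.64 ± 0.19 (SE), or 1.56-fold, with a Benjamini-Hochberg adjusted p of 0.0474 by the quasi-likelihood test of edgeR. This call was kept in 6 and lost in 21 of the 27 fits that left out 1 library in turn. It was kept only without PBS_SAL 81, PBS_SAL 105, HDM_SAL 52, HDM_SAL 100, HDM_CP 49 or HDM_CP 66. Without HDM_SAL 54 its log2 fold change was 0.46 with an adjusted p of 0.189.

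The next genes by p were inner-arm heavy chains, and none passed. Dnah12 had a log2 fold change of 0.57 ± 0.18 (adjusted p = 0.0652), Dnah1 of 0.58 ± 0.19 (adjusted p = 0.0669) and Dnah3 of 0.57 ± 0.20 (adjusted p = 0.0918). Dnah12 averaged 31.6 ± 6.86 CPM in PBS_SAL and 46.8 ± 15.0 CPM in HDM_SAL. Dnah3 averaged 34.1 ± 6.87 and 50.5 ± 17.3 CPM in the same groups. By role the median log2 fold change was 0.50 for the 5 outer-arm genes, 0.51 for the 9 inner-arm genes, 0.38 for the 5 assembly, ruler and linker genes and 0.31 for the 6 radial spoke and central pair genes. It was 0.42 for the 7 tektin and Cfap genes and 0.05 for Tubb4b, Tuba1a, Tppp3 and Rp1. Tppp3 was the only member with a negative value, -0.21 ± 0.13 (adjusted p = 0.392).

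HDM_SAL 54 and 50 had the highest indices of the set. Without HDM_SAL 54 the median over the 36 genes was 0.23 and 0 of the 36 were called, while calls over all genes fell from 1339 to 696. Without HDM_SAL 50, 54 and 99, a choice made after the data were seen and based on their mitochondrial shares, the median was -0.01, with 16 genes above and 20 below 0. Of the 36 genes 0 were then called, and of all genes only 34. The 3 libraries left out are also those with the highest index of the set in HDM_SAL. Leaving them out must therefore lower the median, and the value shows only what the other 3 libraries give. Leaving out HDM_SAL 100, the lowest library, gave 8 calls among the 36 and 1634 over all genes, so 8 of 36 is above the share of all genes. The summed level of 12 club cell genes was 147866 and 124721 TPM in HDM_SAL 54 and 50 and between 78313 and 90191 TPM in the other 4 libraries of that group, and between 81673 and 112737 TPM in PBS_SAL. Heart muscle genes summed to 85.9, 51.6 and 162 TPM in HDM_SAL 54, 50 and 99, 40.7 to 88.3 TPM in the other 3 and 31.9 to 98.8 TPM in PBS_SAL, with a median log2 fold change of 0.55 and 7 of 8 values above 0. The part of these in the result was not tested.

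The 2 most abundant genes of each role are given with the lowest, median and highest library of each group. For Dnai2, PBS_SAL libraries ran from 10.7 through a median of 14.8 to 20.9 CPM, PBS_CP from 12.4 through 16.6 to 20.3, HDM_SAL from 14.3 through 20.9 to 33.4 and HDM_CP from 12.1 through 14.9 to 23.3. For Dnai1, the other outer-arm intermediate chain, they ran from 5.19 through 9.04 to 11.3, from 7.14 through 7.84 to 11.3, from 7.29 through 10.1 to 15.2 and from 6.83 through 8.27 to 13.6 CPM in the same order of groups. All 4 groups overlapped for both genes, and HDM_SAL held the highest library of each. The inner-arm heavy chain Dnah6 ran from 46.7 through 57.8 to 81.2 CPM in PBS_SAL, from 53.6 through 65.3 to 85.6 in PBS_CP, from 49.6 through 84.7 to 136 in HDM_SAL and from 46.8 through 73.2 to 89.8 in HDM_CP. Dnali1, an axonemal light intermediate chain, ran from 14.6 through 18.4 to 25.7, from 16.8 through 21.3 to 26.2, from 19.8 through 26.0 to 44.1 and from 14.2 through 22.0 to 31.3 CPM. For both genes the highest library was in HDM_SAL, and the lowest HDM_SAL library lay inside the range of the other groups.

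Ccdc153 ran from 42.5 through 56.5 to 79.5 CPM in PBS_SAL, from 52.1 through 68.5 to 80.3 in PBS_CP, from 56.1 through 70.5 to 129 in HDM_SAL and from 40.3 through 48.8 to 101 in HDM_CP. Ccdc39, which forms the molecular ruler with Ccdc40, ran from 20.2 through 30.2 to 47.6, from 25.9 through 35.5 to 44.4, from 29.8 through 38.2 to 64.1 and from 26.8 through 34.9 to 39.8 CPM. The HDM_CP median of Ccdc153 was the lowest of its 4 group medians, and that of Ccdc39 lay between those of the other groups. Rsph1 ran from 18.1 through 22.9 to 31.8 CPM in PBS_SAL, from 18.7 through 28.6 to 34.7 in PBS_CP, from 24.8 through 31.9 to 61.0 in HDM_SAL and from 20.1 through 25.4 to 46.7 in HDM_CP. Rsph9, another spoke head gene, ran from 6.94 through 8.63 to 12.7, from 6.56 through 9.47 to 11.5, from 7.55 through 10.6 to 16.0 and from 6.46 through 9.08 to 12.5 CPM. No pair of groups separated for either spoke gene.

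Cfap65, a ciliary and flagellar protein known mostly from sperm, ran from 61.2 through 82.2 to 110.4 CPM in PBS_SAL, from 70.3 through 87.7 to 106 in PBS_CP, from 74.6 through 103 to 177 in HDM_SAL and from 64.4 through 79.2 to 121 in HDM_CP. Cfap43, which tethers an inner-arm dynein to the doublet, ran from 35.4 through 51.2 to 68.2, from 42.8 through 53.9 to 71.4, from 43.0 through 74.1 to 124 and from 43.2 through 58.3 to 81.5 CPM. Both had their highest library in HDM_SAL, again number 54. Tuba1a was flat by contrast, from 354 through 409 to 473 CPM in PBS_SAL, from 375 through 422 to 492 in PBS_CP, from 347 through 415 to 439 in HDM_SAL and from 361 through 392 to 503 in HDM_CP. Its log2 fold change in HDM_SAL against PBS_SAL was 0.00 ± 0.08. None of the 36 genes separated any pair of groups compared without overlap, against 1.97% of all genes for HDM_SAL and PBS_SAL, 0.199% for PBS_CP and PBS_SAL, 0.158% for HDM_CP and HDM_SAL and 1.72% for HDM_CP and PBS_CP.

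**Figure D3:**
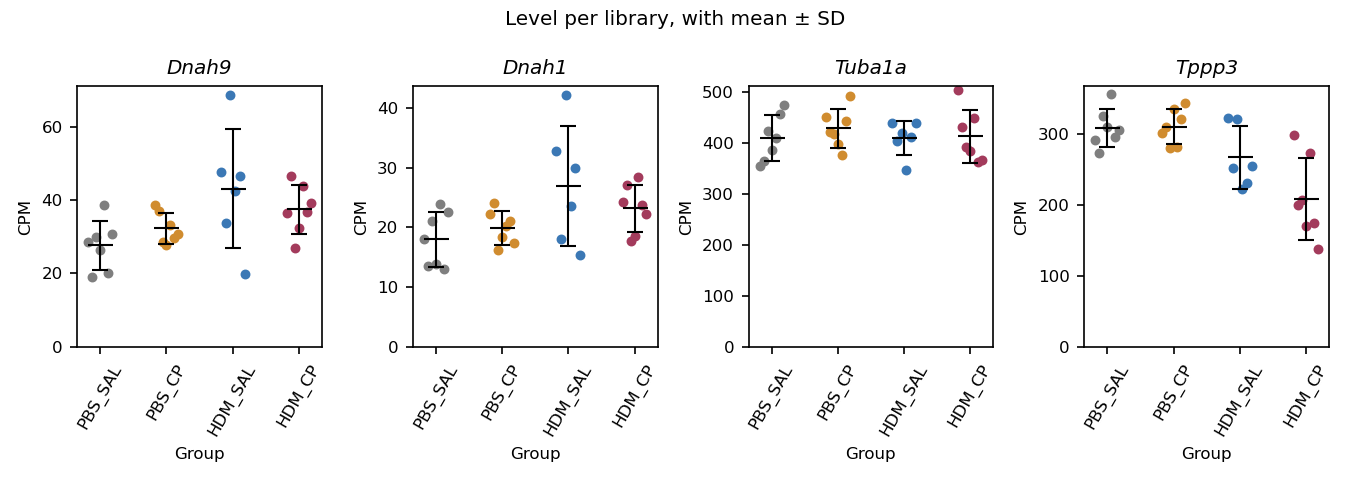
CPM per library (points) with group mean ± SD (bars) for Dnah9, Dnah1, Tuba1a and Tppp3 in the 4 groups, with n = 7, 7, 6 and 7. Tppp3 falls to 138 CPM in HDM_CP and Dnah9 reaches 68.6 CPM in HDM_SAL, while Tuba1a stays between 347 and 503 CPM.

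Combustion products alone were compared with saline in mice without allergen, using the same PBS_SAL libraries as before. No member was called among PBS_CP and PBS_SAL by edgeR, where 0.00812% of all genes were, and 0 members had an unadjusted p under 0.05, against 5.45% of all genes. DESeq2 and limma voom also called 0 members, and 32 and 10 of all genes. The median log2 fold change was 0.10 with 32 of 36 values above 0, against 0.00 over all genes. Dnah9 had the smallest p, with a log2 fold change of 0.22 ± 0.18 (adjusted p = 0.99986), and PBS_CP averaged 32.3 ± 4.26 CPM (SD, n = 7). Dnah7a had 0.21 ± 0.18, Spag6l, a central pair protein, 0.18 ± 0.17 and Tekt2 -0.17 ± 0.16, with the same adjusted p. Tppp3 stood at 310.5 ± 24.7 CPM in PBS_CP and 308 ± 26.8 CPM in PBS_SAL. All of these differences are within the spread between libraries.

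Combustion products in allergen-treated mice were examined by comparing HDM_CP with HDM_SAL, which shares the HDM_SAL libraries with the comparison above. No member was called by edgeR (0.00406% of all genes), and 5 (13.9%) had an unadjusted p under 0.05 against 9.7% of all genes. DESeq2 and limma voom called 0 members, and 192 and 3 of all genes. The median was -0.31 with 35 of 36 values below 0, against 0.00 over all genes, and Tuba1a was the exception at 0.01 ± 0.08. Tppp3 had the smallest p, with -0.36 ± 0.13 (adjusted p = 0.324), followed by Dnah7a with -0.43 ± 0.18 (adjusted p = 0.432). Rp1, a doublecortin-family protein of axonemal microtubules, had -0.37 ± 0.16 (adjusted p = 0.442), and Tekt4 had -0.41 ± 0.19 (adjusted p = 0.455). Rp1 averaged 15.9 ± 4.52 CPM in HDM_SAL and 12.3 ± 2.24 CPM in HDM_CP. Tekt4 averaged 10.5 ± 3.43 and 7.86 ± 2.21 CPM, and Dnah7a 7.27 ± 2.59 and 5.41 ± 1.32 CPM, in these groups. Without HDM_SAL 54 the median was -0.12, and without HDM_SAL 50, 54 and 99, the highest for this set, it was 0.08 with 31 of 36 values above 0. Other lists of marker genes differed in sign. Values were below 0 for 6 of 8 alveolar type 1, 6 of 7 general epithelial and 5 of 9 alveolar type 2 genes. They were above 0 for 3 of 4 airway basal genes and for all 6 cell division genes (median 0.37). Of 12 club cell genes, 0 were called and 11 had values below 0, with a median of -0.39 and 7 unadjusted p under 0.05, and they summed to 78313 to 147866 TPM in HDM_SAL and 47902 to 124060 TPM in HDM_CP. All 8 heart muscle genes had values below 0, with a median of -0.77 and 0 called, and they summed to 40.7 to 162 TPM and 33.4 to 69.9 TPM in these groups. Their part in the result was not tested.

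Whether the response to combustion products differed between allergen and PBS mice was tested by the interaction. No member was called, nor any of the 24629 genes (0%), by edgeR, and DESeq2 called 0 members and 6 of all genes. An unadjusted p under 0.05 was found for 4 members (11.1%), against 6.38% of all genes. All 36 values were below 0, with a median of -0.38 against 0.00 over all genes. The smallest p belonged to Dnah7a, at -0.63 ± 0.26 (adjusted p = 0.769), then Spag6l at -0.52 ± 0.24, Tekt4 at -0.55 ± 0.26 and Tppp3 at -0.37 ± 0.18, each of the 3 with an adjusted p of 0.776. The median was -0.35 for the 12 club cell genes, with 11 values below 0, and -1.12 for the 8 heart muscle genes, with 8 below 0, and their part in the result was not tested. Without HDM_SAL 54 the median over the 36 genes was -0.21, with all 36 values below 0. Without HDM_SAL 50, 54 and 99, the highest libraries of their group for this set, it was -0.01, a move that their choice fixes in direction.

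**Figure D4:**
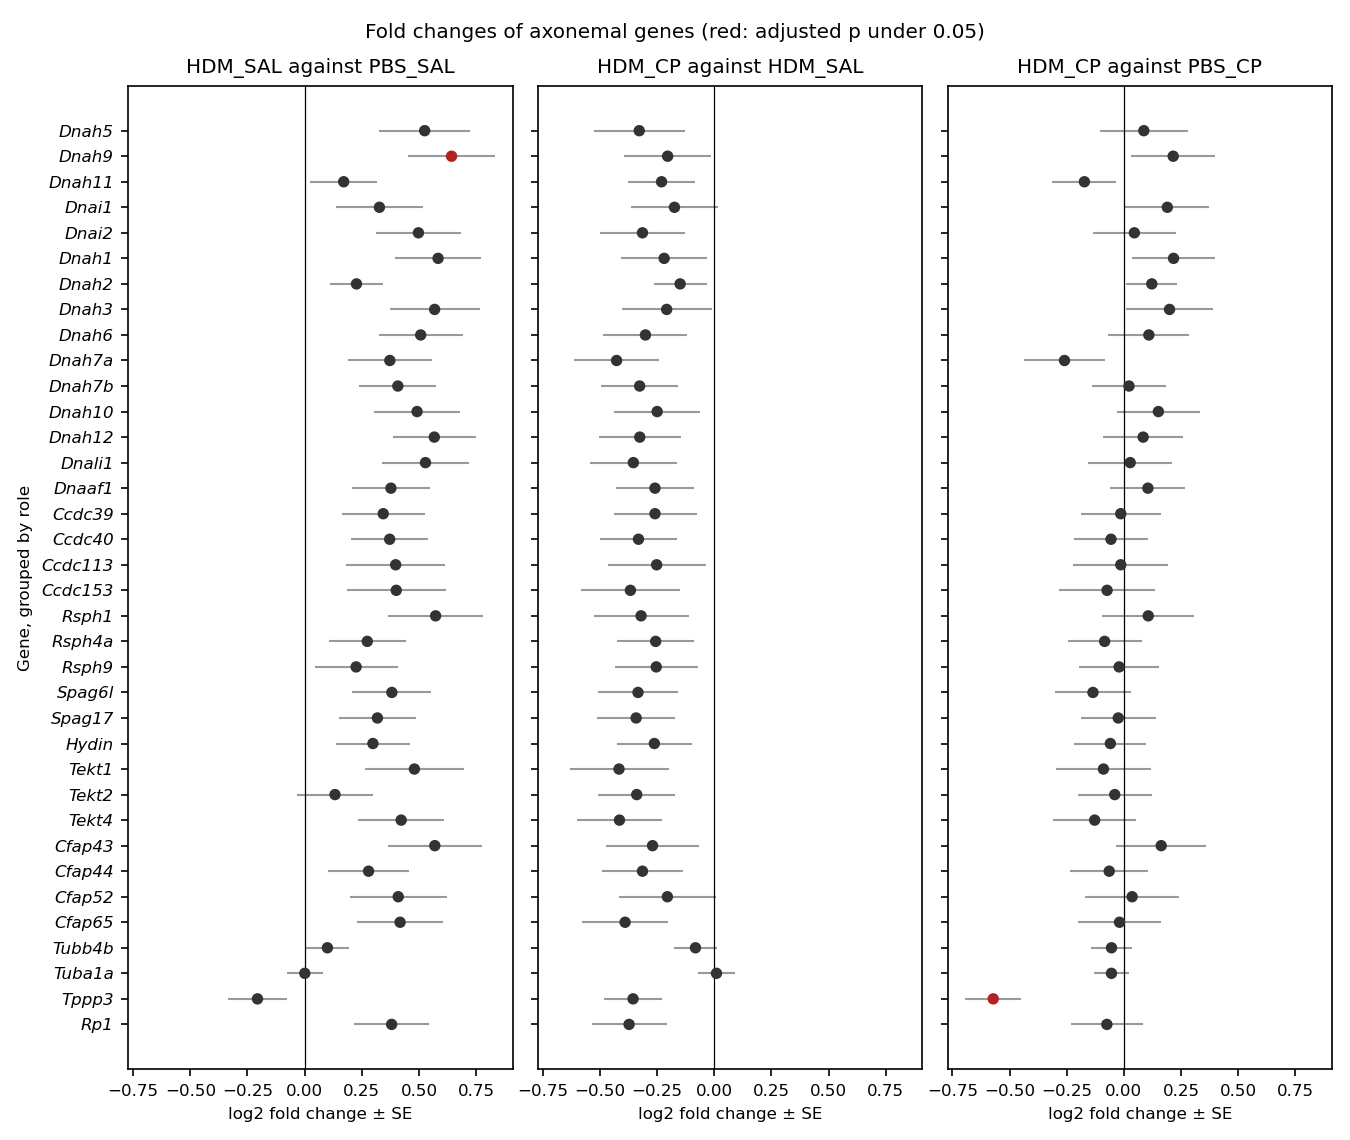
Log2 fold change ± SE of each of the 36 genes by role, for HDM_SAL against PBS_SAL, HDM_CP against HDM_SAL and HDM_CP against PBS_CP, with called genes in red. Values lie right of 0 for 35 genes in the first and left of 0 for 35 in the second, and Tppp3 alone is called in the third.

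Among mice that received combustion products, allergen was compared with PBS, and here Tppp3 fell. The HDM_CP and PBS_CP libraries also entered the preceding comparisons. Tppp3 (chromosome 8, 106194125 to 106198158, minus strand, GRCm39) ran from 280.0 through a median of 309.9 to 344 CPM in PBS_CP and from 138 through 200.2 to 299 CPM in HDM_CP. In HDM_CP, 6 of 7 libraries lay below every PBS_CP library, and library 45 alone overlapped with that group. Its means were 310.5 ± 24.7 and 209 ± 57.7 CPM (SD, n = 7 each). It fell by 0.57 ± 0.12 on the log2 scale, to 0.673 of the PBS_CP level, with a Benjamini-Hochberg adjusted p of 0.00373 by the quasi-likelihood test of edgeR. It was the only member called, in a comparison that called 7.87% of all genes (5.6% higher, 2.27% lower). The call held in all 41 other fits tried, with adjusted p from 0.000109 to 0.0205. The set as a whole did not follow, with a median of -0.02 and 16 values above 0. The next by p were Dnah7a at -0.26 ± 0.18 (adjusted p = 0.456), Dnah11, an outer-arm heavy chain, at -0.17 ± 0.14 (adjusted p = 0.553) and Dnah1 at 0.22 ± 0.18 (adjusted p = 0.566).

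Averaged over both second treatments, allergen changed 3 members, Tppp3, Dnah9 and Dnah1. This comparison called 16.2% of all genes (9.2% higher, 6.98% lower), so 3 of 36 is again below the share of all genes. Tppp3 fell by 0.39 ± 0.09 in log2 units, with an adjusted p of 0.00282 and HDM_SAL libraries from 222 through a median of 253 to 323 CPM. Dnah9 rose by 0.43 ± 0.13 (adjusted p = 0.0269), with HDM_CP at 37.5 ± 6.66 CPM (SD, n = 7). Dnah1, an inner-arm heavy chain (chromosome 14, 30982332 to 31045853, minus strand, GRCm39), rose by 0.40 ± 0.13 (adjusted p = 0.0346). Dnah1 ran from 13.0 through 18.1 to 23.9 CPM in PBS_SAL, from 16.2 through 20.3 to 24.2 in PBS_CP, from 15.3 through 26.7 to 42.2 in HDM_SAL and from 17.8 through 23.7 to 28.4 in HDM_CP. The 4 groups overlapped in these values. Dnah3 followed with 0.38 ± 0.14 (adjusted p = 0.0556). The median over the 36 genes was 0.18, with 33 values above 0, and it was 0.01 over all genes.

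The call of Tppp3 held in all 40 other fits of the averaged comparison, that of Dnah9 in 36 and that of Dnah1 in 22. With runs of library numbers as a block Tppp3 and Dnah9 were called and Dnah1 was not, with a log2 fold change of 0.38 and an adjusted p of 0.0607. Without HDM_SAL 54, or without the 3 libraries under 60 M, Tppp3 alone of the 36 was called, with 3583 and 4375 of all genes. Averaged over both first treatments, combustion products changed 0 members by edgeR (0.0487% of all genes called, 0.0406% higher and 0.00812% lower) and by DESeq2 (176 of all genes). An unadjusted p under 0.05 was found for 1 member (2.78%, against 8.84% of all genes). That was Tekt2, a tektin, at -0.25 ± 0.12 (adjusted p = 0.535), and Tppp3 followed at -0.17 ± 0.09 (adjusted p = 0.588). Spag17, a central pair protein, had -0.17 ± 0.12 (adjusted p = 0.75) and Cfap65 -0.17 ± 0.13 (adjusted p = 0.786). The median was -0.10 with 34 values below 0.

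Tppp3 moved apart from the rest of the set within the same libraries. Relative to the median of the other 35 genes, on the log2 TPM scale, Tppp3 stood at 5.72 ± 0.25 in PBS_SAL, 5.57 ± 0.21 in PBS_CP, 5.09 ± 0.33 in HDM_SAL and 5.03 ± 0.31 in HDM_CP (SD). The group means shifted by -0.63 for HDM_SAL against PBS_SAL and by -0.54 for HDM_CP against PBS_CP. The first shift holds a rise of the other genes, since Tppp3 itself had a fitted log2 fold change of -0.21 there and the set a median of 0.39. In the second these were -0.57 and -0.02. No other member shifted as far in either comparison, with Tuba1a at -0.41 and 0.01, Tubb4b at -0.33 and 0.01 and Dnah9 at 0.21 and 0.30. In order of rising Tppp3, the HDM_CP libraries 98, 67, 97, 49, 66, 96 and 45 had summed levels of 6 cell division genes of 107, 115, 71.9, 108, 57.8, 50.8 and 39.3 TPM. All 6 of these cell division genes rose in HDM_CP against PBS_CP, with a median of 1.26, where 5.6% of all genes were called higher. In the same order of libraries the 12 club cell genes summed to 47902, 65448, 81399, 68456, 77949, 99886 and 124060 TPM. Their median in HDM_CP against PBS_CP was -0.25, with 8 of 12 values below 0. The part of either list in the level of Tppp3 was not tested. Alveolar type 1 genes summed to 3531 to 5527 TPM in HDM_CP and 5049 to 6103 TPM in PBS_CP. Of these 8 genes 2, Hopx and Rtkn2, were called lower in that comparison, as were 2.27% of all genes.

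**Figure D5:**
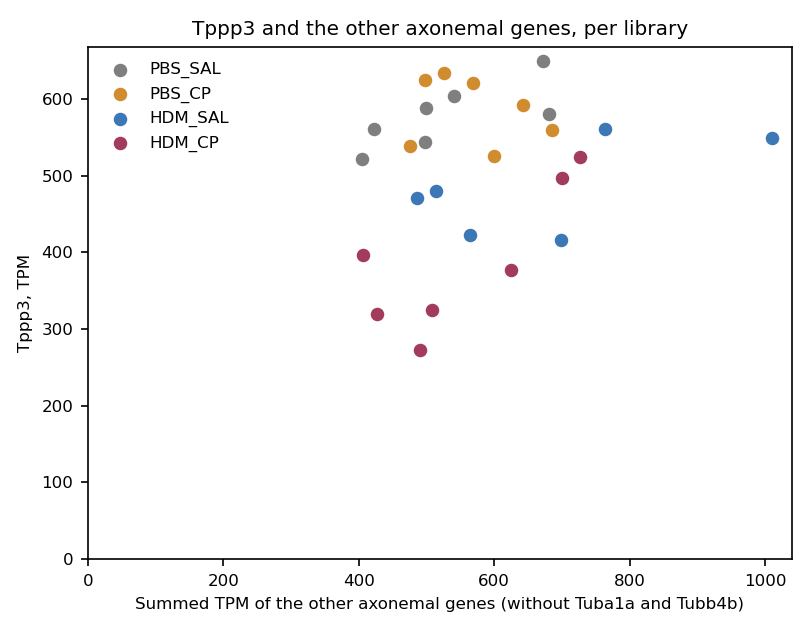
Tppp3 in TPM (vertical axis) against the summed TPM of the other axonemal genes without Tuba1a and Tubb4b (horizontal axis), 1 point per library, coloured by group. HDM_CP libraries lie between 273 and 525 TPM of Tppp3 and PBS_SAL libraries between 522 and 649 TPM, and HDM_SAL 54 is farthest right at 1009.8 TPM.

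Axoneme genes outside the 36 were counted in the same way. Of 63 tested in HDM_SAL against PBS_SAL, 2 were higher and 0 lower, with a median of 0.36 and 62 values above 0. Of all genes 3.19% were called higher there, so 2 of 63 is near that share. The 2 were Dnah8, a heavy chain best known from sperm, which rose by 0.63 ± 0.11 (adjusted p = 0.000729), and Odad4, an outer-arm docking gene, which rose by 0.69 ± 0.19 (adjusted p = 0.0281). Dnah8 also rose by 0.60 ± 0.10 in HDM_CP against PBS_CP (adjusted p = 0.000444), where it was the only gene of the 63 called and 5.6% of all genes were called higher. In the averaged allergen comparison 3 of 63 were higher, the third being Rsph14 at 0.51 ± 0.17 (adjusted p = 0.0314), and 3 of 63 is below the 9.2% of all genes. In PBS_CP against PBS_SAL, HDM_CP against HDM_SAL and the interaction 0 of the 63 were called, and 0.00812, 0.00406 and 0% of all genes. The medians were 0.05, -0.24 and -0.33, with 0, 9 and 4 unadjusted p under 0.05.

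Among the genes that drive the making of many centrioles and cilia, several early ones rose with allergen in mice given saline. Of 14 tested in HDM_SAL against PBS_SAL, 4 were higher with a median of 0.47, where 3.19% of all genes were called higher. Mcidas rose by 2.35 ± 0.46 (adjusted p = 0.0031), Cdc20b by 2.03 ± 0.45 (adjusted p = 0.00814), Ccno by 1.37 ± 0.32 (adjusted p = 0.012) and Deup1 by 1.37 ± 0.30 (adjusted p = 0.00799). These act early, when centrioles are amplified, and Mcidas itself was scarce, at group medians of 0.70 TPM in PBS_SAL and 2.72 TPM in HDM_SAL. Foxj1, which acts on the axonemal genes directly, had 0.52 ± 0.20 (adjusted p = 0.127). The 14 genes summed to 293 TPM in HDM_SAL 54, 177 to 221 TPM in the other 5 HDM_SAL libraries and 154 to 199 TPM in PBS_SAL, so library 54 led here too. In HDM_CP against PBS_CP only 1 of the 14 was higher, with a median of 0.15, where 5.6% of all genes were called higher. In the averaged allergen comparison 7 of the 14 were higher, where 9.2% of all genes were.

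Intraflagellar transport genes, which carry cargo along all cilia and not only motile ones, gave 0 of 25 calls by edgeR in each of the 7 comparisons, with 0 to 4 unadjusted p under 0.05. The share of all genes called ran from 0% in the interaction to 16.2% in the averaged allergen comparison. The median of the transport genes was 0.09 in HDM_SAL against PBS_SAL. Of 12 tubulin genes outside the set, 1 was higher in HDM_SAL against PBS_SAL, Tubb6 at 0.43 ± 0.13 (adjusted p = 0.0479), where 3.19% of all genes were called higher. In HDM_CP against PBS_CP 3 of the 12 were higher and 1 lower, where 5.6% of all genes were called higher and 2.27% lower. Among these were Tubb3 at 1.40 ± 0.29 (adjusted p = 0.00283) and Tubb4a at -0.64 ± 0.15 (adjusted p = 0.00967). Tubb5, the general cytoplasmic beta tubulin, rose by 0.27 ± 0.07 (adjusted p = 0.019). In that same comparison the axonemal Tubb4b had -0.05 ± 0.09 and Tuba1a -0.05 ± 0.08. The airway basal cell gene Krt5 was at 0 counts in 20 of the 27 libraries.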

How the data were processed

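RNA-seq of 27 whole lungs was analysed from 2 deposited tables. The authors deposited estimated counts per gene, whole numbers with sums of 56.3 to 84.5 M per library, about 4 times the 20 M read pairs of 150 bases planned per the labels' protocols. The authors also deposited TPM, which carry no depth. The submitters' processing notes name GRCm39, StringTie 2 and STAR (no version given in the sources used here). No source states whether strand was used in counting. Genes without a symbol (310) held 0.0602% of the counts.

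Estimated counts were rounded and analysed with edgeR 4.0.16 in R 4.3.3. Genes were kept by filterByExpr (minimum count 10), scaled by edgeR's TMM factors, and a model with 4 group means took in all 27 libraries, with quasi-likelihood tests adjusted by Benjamini-Hochberg over 24629 genes at 0.05. The 7 comparisons were 4 between pairs of groups, the interaction, and the effects of allergen and of combustion products averaged over the other factor. SEs were the fold change divided by the root of its F value, and index values used a prior count of 2. Relative TPM used log2(TPM + 0.01). The script was tested on simulated data. Statistics were given for called members, or for the 4 with the smallest p where fewer than 4 were called, and library values for the 2 most abundant of each role, with Dnah9 and Dnah1 added as called genes. Other lists name called genes or the 4 smallest p, and Foxj1, Krt5, Hopx, Rtkn2 and Scgb1a1 were named after their values were seen. The members and lists were chosen with earlier results of these data known. Alternatives were other scaling factors, DESeq2 1.42.0, limma 3.58.1 with voom or on log2 TPM with a pseudocount of 1 or 0.1, other filters, counts divided by 4, only the groups compared, runs of library numbers as a block, and each library left out. Leaving out 3 shallow libraries or 3 with high mitochondrial shares was added after the data were seen.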

Additional observations from a re-analysis of the deposited data

How the results depend on the processing

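In HDM_SAL against PBS_SAL the 1 call became 6 with DESeq2 and 2 with a minimum count of 50. It became 0 with all genes kept, in a fit to the compared groups alone, with runs of library numbers as a block, with limma on log2 TPM (pseudocount 1 or 0.1 for genes averaging 0.5 TPM or more, or 1 with no filter), without the 3 libraries under 60 M and without HDM_SAL 50, 54 and 99. Leaving out 1 library in turn gave 0 to 8 calls, with 602 to 1656 over all genes. The 8 came without HDM_SAL 100, where 1634 of all genes were called, a smaller share. In the averaged allergen comparison the 3 calls became 5 with DESeq2 and 1 with log2(TPM + 1) and no filter, without the 3 libraries under 60 M or without HDM_SAL 50, 54 and 99, and they ranged from 1 to 8 when 1 library was left out. They were 1 without HDM_SAL 54, 5 without PBS_SAL 105 or HDM_SAL 52, 6 without HDM_CP 66 and 8 without HDM_SAL 100. Over all genes the calls were 3986 in the main fit, 4632 with DESeq2 and 1884 without HDM_SAL 50, 54 and 99. They were 3583 without HDM_SAL 54, 4646 without HDM_CP 66 and 4244 without HDM_SAL 100. Counts of members called in the other 5 comparisons were the same in every fit. Cfap65 in the averaged combustion comparison turned from -0.17 to 0.063 without HDM_SAL 50, 54 and 99. The cause was not tested. No paired analysis was possible because the library numbers in the labels are all different, so groups share none. The 2 sets of left-out libraries other than single ones were chosen after seeing the data, and HDM_SAL 50, 54 and 99 have the highest levels of the set in their group, so the direction of the move without them follows from the choice. The estimated counts sum to about 4 times the planned read pairs, for a reason no source states, so they may overstate the depth. The lowest value of any member was 265 estimated counts, for Dnah7a.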

Other observations

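Dnah7a, an inner-arm heavy chain, differed between the 2 deposited scales more than any other member. Its TPM ran from 0.889 to 6.52, a 7.34-fold range over the 27 libraries, while its CPM from the estimated counts ran from 3.65 to 12.4, a 3.38-fold range. The member with the next widest range in TPM was Dnah5, at 3.27-fold, with 3.65-fold in CPM. Dnah7a shares a near-identical copy, Dnah7b, on the same chromosome, and its fold changes above come from the estimated counts.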
